A study of Mus musculus with 8 samples.

Results

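The pyruvate dehydrogenase kinases (Pdk1, Pdk2, Pdk3 and Pdk4) and phosphatases (Pdp1 and Pdp2) were followed in mouse oligodendrocyte progenitors grown in low or high glucose. They are the 6 genes with these symbols among 56980 gene IDs in the count table, and all 6 passed the filter on low counts. The progenitors are the dividing precursors of myelinating cells. They came from the cortex of wild-type C57BL/6 pups of either sex at postnatal day 6 to 8, after lectin dishes had taken out microglia and endothelial cells, and were captured with an antibody to PDGFRα. All cultures had first been expanded in 25 mM glucose with the mitogens PDGF-AA (10 ng/mL) and bFGF (20 ng/mL), and PDGF-AA alone was kept through the experiment. In the low glucose (LG) cultures, part of the medium was exchanged for glucose-free medium, which left 12.5 mM after the exchange of day 1, 5 mM after that of day 2 and 2.5 mM after that of day 3. The high glucose (HG) cultures stayed at 25 mM. Both were harvested on day 5, with 4 libraries in LG and 4 in HG.

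The pyruvate dehydrogenase complex of the mitochondrial matrix turns pyruvate into acetyl-CoA and so joins glycolysis to the citric acid cycle and to acetyl-CoA supply for lipids. The kinases phosphorylate serines of its alpha subunit, encoded by Pdha1, and switch the complex off, while the phosphatases remove these phosphates and switch it on again. The kinase genes are known for different controls: Pdk1 is a target of hypoxia-inducible factor, Pdk4 is induced by PPAR and FOXO factors in fasted tissues, and Pdk2 is expressed in most tissues. Pdp1 is the calcium-stimulated phosphatase, and Pdp2 is the isoform linked to insulin in fat and liver. These controls act on mRNA in part only, and protein and phosphorylation were not measured here.

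The LG libraries held 53869166 to 65733928 counts in genes and the HG libraries 50864130 to 61915909. Progenitor genes were abundant, with Pdgfra at a mean of 1712 CPM (counts scaled by library size) in LG and 1826 CPM in HG, while the 7 microglial markers summed to 2.29 to 3.48 CPM in LG and 2.28 to 2.93 CPM in HG, and the 6 endothelial markers to 6.04 to 7.41 CPM in LG and 5.06 to 6.70 CPM in HG. In each of these lists 1 marker had no count in any library (Cx3cr1 and Cldn5). P2ry12, Aif1, Cd68, Laptm5, Pecam1, Kdr and Vwf were counted in every library. The descriptions give libraries 1 and 2 of both groups a common preparation code and libraries 3 and 4 a code each, so the 8 libraries come from 3 preparation codes. Libraries 1 and 2 stood apart from 3 and 4 for several of the 6 genes, which is described further on. As measurements on whole cultures, the values cannot tell fewer cells of a type from less RNA per cell.

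Pdk2 was the member whose LG and HG libraries did not overlap. It had 38.3, 38.6, 41.8 and 33.4 CPM in LG libraries 1 to 4, against 26.8, 33.1, 32.6 and 32.8 CPM in HG libraries 1 to 4. The lowest LG library was just above the highest HG library, and HG library 1 was the lowest of all. The means were 38.0 ± 3.48 CPM in LG and 31.3 ± 3.03 CPM in HG (SD, n = 4 each). Of all 18905 tested genes, 1.07% were higher in LG without overlap and 1.82% were lower without overlap. By edgeR's quasi-likelihood test across all genes, the log2 fold change of Pdk2 was 0.28 (SE 0.098), with an unadjusted p of 0.0178 and a Benjamini-Hochberg adjusted p of 0.9999, so it did not pass. Without LG library 3 the unadjusted p was 0.0567.

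The difference of Pdk2 had the same sign in each preparation. It was higher in LG in 4 of 4 same-numbered pairs, by 0.51, 0.22, 0.36 and 0.02 in log2 CPM for pairs 1 to 4, and 10.8% of all tested genes were higher in LG in every pair. With the pair as a block in the edgeR fit, the log2 fold change was 0.28 (SE 0.081, unadjusted p = 0.00549), and the adjusted p of 0.177 did not pass. With offsets for GC content and length as well, it was 0.19 (SE 0.060, adjusted p = 0.157 by edgeR). Pdk2 has the highest GC content of the 6 genes, 56.9% of its longest transcript, against 39.2% for Pdp1, the lowest.

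Pdk3, the X-linked kinase, had overlapping groups. Its values were 29.5, 29.5, 28.7 and 26.6 CPM in LG libraries 1 to 4, and 25.2, 27.0, 27.5 and 27.3 CPM in HG libraries 1 to 4. LG library 4 lay among the HG libraries. The log2 fold change was 0.09 (SE 0.073, unadjusted p = 0.223, edgeR adjusted p = 0.9999), and 3 of 4 pairs were higher in LG. The fold change of Pdk3 was positive in each of the 22 fits, from 0.05 to 0.14, as was that of Pdk2, from 0.19 to 0.36.

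Pdk1 had 14.4, 17.5, 8.48 and 9.36 CPM in LG libraries 1 to 4, against 14.0, 15.4, 9.26 and 7.33 CPM in HG libraries 1 to 4. In both groups libraries 1 and 2 were high and libraries 3 and 4 low, and the LG and HG values overlapped. The log2 fold change was 0.11 (SE 0.29, edgeR adjusted p = 0.9999) without the block and 0.11 (SE 0.093, edgeR adjusted p = 0.628) with it. The pairs differed by 0.04, 0.19, -0.13 and 0.35 in log2 CPM.

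Pdk4 was the rarest member, and its counts were 73, 137, 8 and 18 in LG libraries 1 to 4, against 90, 90, 21 and 19 in HG libraries 1 to 4. The lowest of these, 8 counts in LG library 3, has an exact 95% Poisson interval of 3.45 to 15.8 counts, which covers counting error only. On the CPM scale this was 1.38, 2.14, 0.150 and 0.266 CPM in LG, against 1.66, 1.72, 0.345 and 0.322 CPM in HG. Again libraries 1 and 2 were high in both groups, and the groups overlapped. The log2 fold change was -0.03 (SE 0.87, edgeR adjusted p = 0.9999) without the block and -0.21 (SE 0.26, edgeR adjusted p = 0.769) with it, and 1 of 4 pairs was higher in LG.

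Neither phosphatase gene separated the groups. Pdp1, which encodes the calcium-stimulated catalytic subunit, had 9.95, 9.98, 8.54 and 7.32 CPM in LG libraries 1 to 4, against 9.63, 11.4, 8.32 and 7.43 CPM in HG libraries 1 to 4. Its log2 fold change was -0.04 (SE 0.16, edgeR adjusted p = 0.9999), with 2 pairs higher and 2 lower in LG, and the sign turned to 0.08 with the GC and length offsets, with or without the block. Pdp2, the other catalytic subunit, had 20.6, 25.7, 23.6 and 25.7 CPM in LG, against 22.1, 22.4, 23.1 and 25.6 CPM in HG. Its log2 fold change was 0.04 (SE 0.096, edgeR adjusted p = 0.9999), and 3 of 4 pairs were higher in LG. Values within both groups overlapped for each phosphatase.

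**Figure D1:**
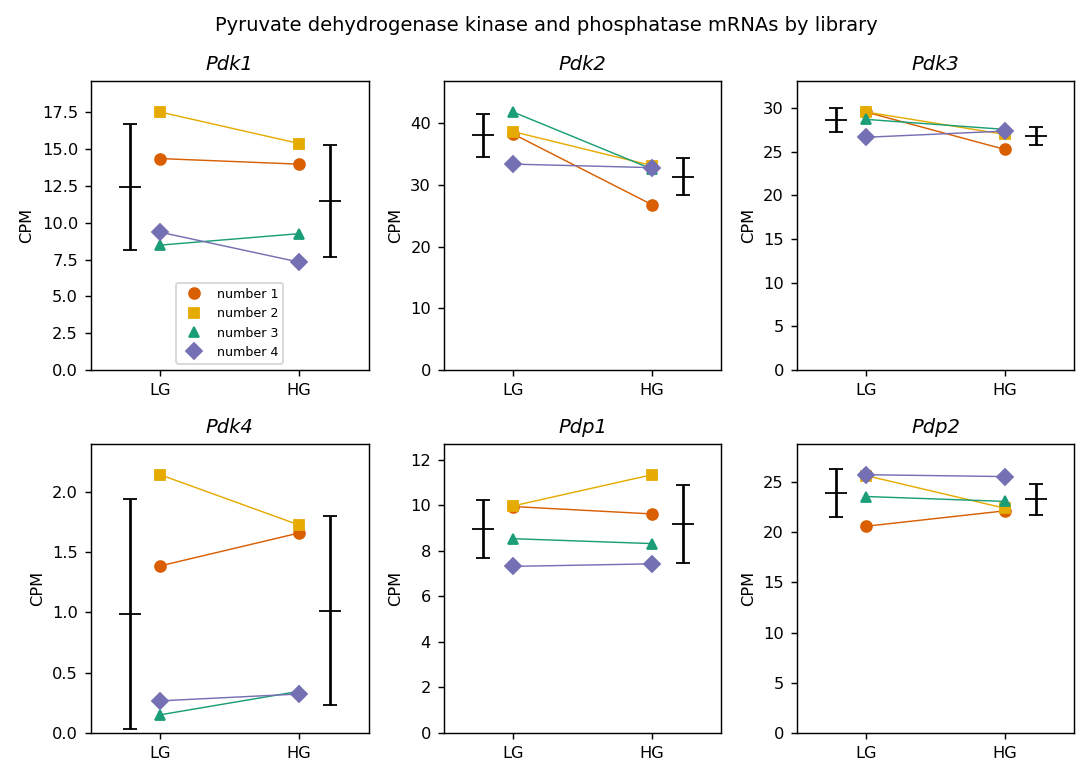
Normalised counts (CPM) of the 6 genes on the vertical axes, with LG libraries left of HG libraries. Each line joins the LG and HG library of 1 number, and black bars give the mean and SD of 4 libraries. Pdk2 is the panel in which the groups do not overlap (33.4 CPM and above in LG, 33.1 CPM and below in HG), while Pdk1, Pdk4 and Pdp1 part by library number.

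No member passed in LG against HG. By edgeR without a block, 0 of 6 members and 0% of the 18905 genes passed at an adjusted p of 0.05, and at an unadjusted p under 0.05 there was 1 member, Pdk2, beside 3.94% of all genes. DESeq2 and limma-voom in the same design called 0 members, with 0.0212% of all genes for DESeq2 and 0% for limma-voom. At an unadjusted p under 0.05 each had 1 member, beside 788 of 18904 genes for DESeq2 and 717 of 18905 for limma-voom. With the pair block, edgeR called 0 members and 0.418% of all genes, and with the block and the offsets 0 members and 1.47%. A block for the preparation gave 0 members and 0.00529% of all genes, and counts summed per preparation gave 0 members and 0.0886%. The median log2 fold change of the 6 members was 0.07, from -0.04 to 0.28, against 0.01 over all genes.

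**Figure D2:**
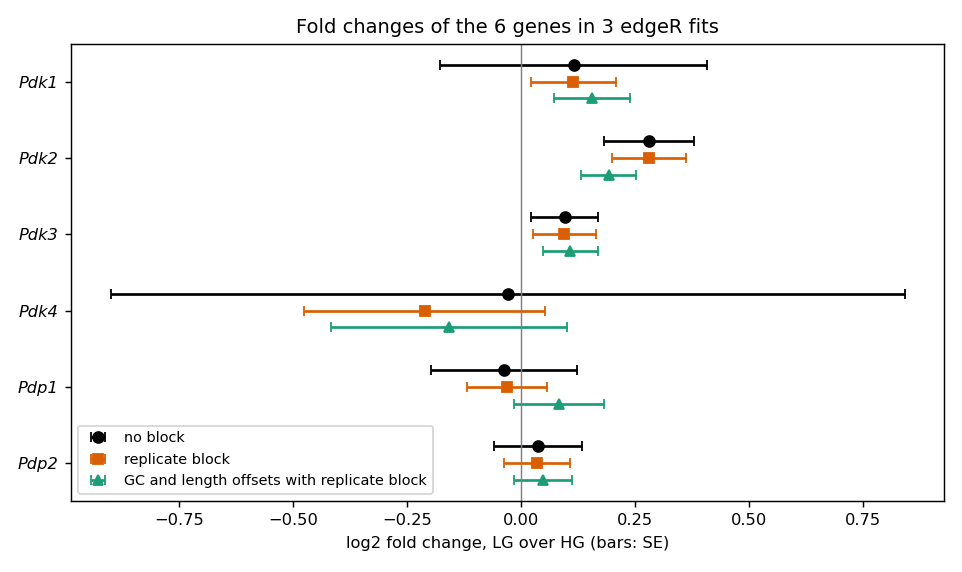
Log2 fold change of LG over HG on the horizontal axis for the 6 genes, in edgeR fits without a block, with the pair as a block, and with the block and GC and length offsets. Bars are standard errors. Pdk2 lies at 0.28, 0.28 and 0.19, and the interval of Pdk4 without the block is the widest, with an SE of 0.87.

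The promoter of Pdk2 is shown because Pdk2 was the gene that parted the groups, with that of Pdp2, which holds the same E-box and did not part them, and those of Pdk1 and Pdk4, which followed the preparation. An E-box, CACGTG, is the core bound by the MLX family of glucose-sensing factors and by MYC. The core of a hypoxia response element is ACGTG, or GCGTG in its other common form. Each window, the one that spans the annotated start of the gene, runs from 250 bases before to 50 bases after a gene's start, 5′ to 3′ on the gene's strand, from RefSeq on GRCm38.p6. Capitals mark the E-box and both forms of the hypoxia core on either strand, and the E-box contains ACGTG on both strands.
Pdk2, chr11:95041322-95041621, minus strand: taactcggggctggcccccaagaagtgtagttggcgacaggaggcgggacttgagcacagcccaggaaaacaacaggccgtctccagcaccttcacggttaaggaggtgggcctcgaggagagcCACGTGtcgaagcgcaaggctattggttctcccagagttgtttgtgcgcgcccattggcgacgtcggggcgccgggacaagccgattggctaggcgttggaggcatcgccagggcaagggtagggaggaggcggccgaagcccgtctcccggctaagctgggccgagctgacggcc
Pdp2, chr8:104591222-104591521, plus strand: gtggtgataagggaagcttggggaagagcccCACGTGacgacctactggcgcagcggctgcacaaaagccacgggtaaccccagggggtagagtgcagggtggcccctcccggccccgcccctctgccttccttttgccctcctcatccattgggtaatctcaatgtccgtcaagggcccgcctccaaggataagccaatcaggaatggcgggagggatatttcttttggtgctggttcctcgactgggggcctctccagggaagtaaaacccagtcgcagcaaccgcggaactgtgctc
Pdk1, chr2:71872974-71873273, plus strand: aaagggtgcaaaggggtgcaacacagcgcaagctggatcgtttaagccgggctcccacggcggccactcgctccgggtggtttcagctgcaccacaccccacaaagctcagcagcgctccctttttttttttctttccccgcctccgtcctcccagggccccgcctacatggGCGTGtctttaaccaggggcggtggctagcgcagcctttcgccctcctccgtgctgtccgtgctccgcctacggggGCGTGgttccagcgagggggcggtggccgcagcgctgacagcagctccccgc
Pdk4, chr6:5496229-5496528, minus strand: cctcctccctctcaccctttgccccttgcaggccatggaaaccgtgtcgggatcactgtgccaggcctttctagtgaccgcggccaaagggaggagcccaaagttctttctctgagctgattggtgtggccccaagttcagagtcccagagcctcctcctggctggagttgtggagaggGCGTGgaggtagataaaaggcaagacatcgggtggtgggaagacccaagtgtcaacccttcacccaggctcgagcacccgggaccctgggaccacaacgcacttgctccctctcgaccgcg

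Counted from the start of the gene, the E-box of Pdk2 begins at base -126 and that of Pdp2 at base -219. Of all 32851 promoter windows of the same length, 7.15% hold the E-box, 19.6% hold the hypoxia core with A and 32.4% the one with G. The Pdk1 window holds the hypoxia core with G at 2 places and that of Pdk4 at 1. The Pdk3 window, whose gene overlapped between libraries 1 and 2 and the others, holds it at 3 places and the core with A at 1. The FOXO core TGTTTAC, found in 3.65% of all windows, and the DR1 repeat of PPAR factors, found in 0.0396%, have no match on either strand of the 5 windows searched, for Pdk1, Pdk2, Pdk3, Pdk4 and Pdp2. A match is a run of letters and not a measured site.

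Levels of different genes were compared per kb of exonic length. In LG the order was Pdk2 at 12.02 ± 1.10 CPM per kb, Pdk3 at 11.2 ± 0.532, Pdp2 at 4.20 ± 0.424, Pdp1 at 1.99 ± 0.283, Pdk1 at 1.60 ± 0.548 and Pdk4 at 0.280 ± 0.271 CPM per kb (SD, n = 4). In HG it was Pdk3 at 10.5 ± 0.409 CPM per kb, Pdk2 at 9.90 ± 0.957, Pdp2 at 4.09 ± 0.274, Pdp1 at 2.04 ± 0.378, Pdk1 at 1.48 ± 0.489 and Pdk4 at 0.288 ± 0.223 (SD, n = 4). The libraries of the neighbours Pdk2 and Pdk3 overlapped in range in both groups, as did those of Pdp1 and Pdk1, while Pdp2 stood clear of both sets. The place of Pdk1 depends on the gene model. Per kb of the longest transcript it was at 2.40 ± 0.822 in LG and 2.21 ± 0.734 in HG, against 2.13 ± 0.304 in LG and 2.19 ± 0.405 in HG for Pdp1 (SD, n = 4).

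Pdk2 and Pdk3 made up most of the kinase mRNA. Pdk2 held 48.0 ± 2.59% of the summed kinase level per kb in LG and 44.7 ± 2.57% in HG, and Pdk3 held 44.6 ± 1.52% in LG and 47.3 ± 1.64% in HG (SD, n = 4). Pdk1 added 6.32 ± 1.85% in LG and 6.68 ± 2.22% in HG, and Pdk4 1.08 ± 1.01% in LG and 1.31 ± 1.02% in HG. Among the phosphatases, Pdp2 held 67.8 ± 4.72% in LG and 66.8 ± 5.25% in HG. The groups overlapped for the share of each gene.

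The ratio of Pdk2 to Pdk3 per kb was 1.08 ± 0.072 in LG and 0.946 ± 0.060 in HG (SD, n = 4), and the groups did not overlap. Pdk2 was above Pdk3 in 4 of 4 LG libraries and in 0 of 4 HG libraries. With the longest transcript as the length the ratios were 1.25 ± 0.084 in LG and 1.10 ± 0.069 in HG, and Pdk2 was above Pdk3 in 4 of 4 libraries of each group. The difference in log2 ratio was 0.29, 0.09, 0.30 and 0.06 in pairs 1 to 4. These ratios use CPM without the GC and length offsets, and Pdk2 has a GC content of 56.9% against 47.7% for Pdk3. With the pair block the log2 fold changes were 0.28 for Pdk2 and 0.09 for Pdk3. With the block and the offsets they were closer together, at 0.19 and 0.11. No share of other gene pairs whose ratio parts the groups is given here.

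The summed kinase level was 25.1 ± 1.94 CPM per kb in LG and 22.1 ± 1.18 CPM per kb in HG, and that of the phosphatases 6.18 ± 0.383 in LG and 6.13 ± 0.236 in HG (SD, n = 4). The kinases together were thus 4.06 ± 0.356 times the phosphatases in LG and 3.61 ± 0.151 times in HG. The libraries of the groups overlapped in all these measures, at 3.62 to 4.44 for the ratio in LG and 3.42 to 3.78 in HG. The log2 difference of the ratio was 0.38, 0.12, 0.16 and 0.01 in pairs 1 to 4. The sums use CPM without the GC and length offsets. With the pair block the log2 fold changes were 0.28 for Pdk2 and -0.03 for Pdp1, and with the block and the offsets 0.19 and 0.08. These sums were given no test, because the genes were chosen with results known.

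**Figure D3:**
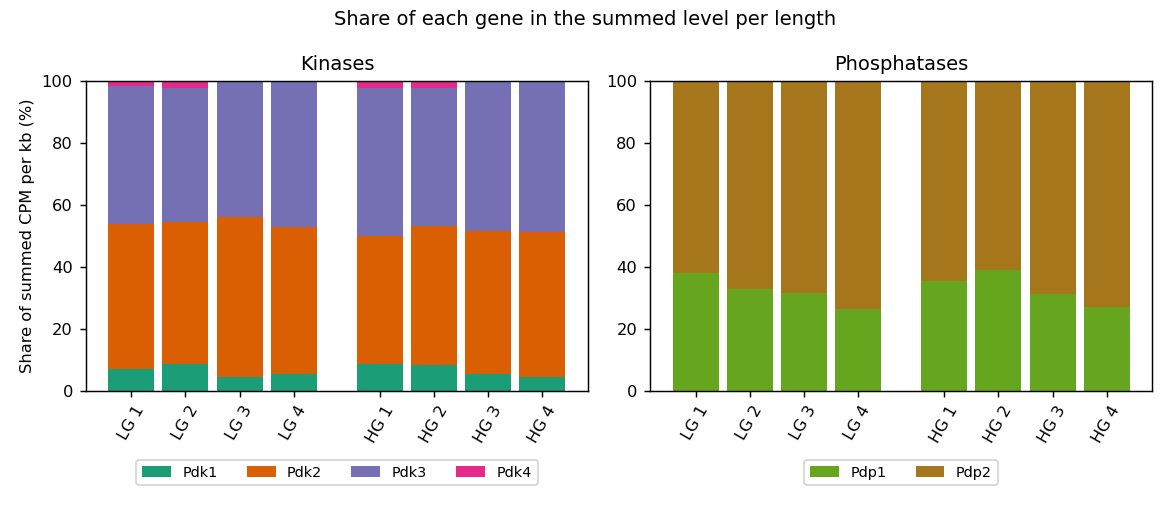
Share in percent of each kinase in the summed kinase level and of each phosphatase in the summed phosphatase level, from CPM per kb of exons, in the 4 LG libraries left of the 4 HG libraries. Pdk2 and Pdk3 fill most of each kinase bar, Pdk4 is visible in libraries 1 and 2 of both groups, and Pdp2 is the larger part of each phosphatase bar.

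Pdk4, Pdk1 and Pdp1 differed by library number, in LG and HG alike. In the 4 libraries numbered 1 and 2, Pdk4 was at 1.38 to 2.14 CPM, against 0.150 to 0.345 CPM in the 4 libraries numbered 3 and 4, a 6.37-fold ratio of the means. Of all tested genes, 0.952% had a ratio this large. Pdk1 was at 14.0 to 17.5 CPM in libraries 1 and 2, against 7.33 to 9.36 CPM in libraries 3 and 4, a ratio of 1.78. Pdp1 was at 9.63 to 11.4 CPM in libraries 1 and 2, against 7.32 to 8.54 CPM in libraries 3 and 4, a ratio of 1.29.

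These 3 genes did not overlap between libraries 1 and 2 and the others, as was the case for 11.2% of all tested genes in the same direction and 11.9% in the other. Pdk2, Pdk3 and Pdp2 overlapped, with ratios of 0.973, 1.01 and 0.927. Libraries 1 and 2 are 1 preparation by their code, and the others are 2, so no test of this difference was made.

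Most astrocyte markers were divided in the same way. The summed level of 9 astrocyte markers, all of them tested and none at 0, was 1552 to 1724 CPM in libraries 1 and 2 of both groups. It was 544 to 618 CPM in libraries 3 and 4. S100b went the other way, at 33.9 to 46.2 CPM in libraries 1 and 2, against 46.8 to 65.7 CPM in libraries 3 and 4. Each other marker of this list was higher in libraries 1 and 2 without overlap. The 8 mural and fibroblast markers, of which 5 were tested, summed to 31.4 to 51.7 CPM in libraries 1 and 2, against 8.94 to 10.9 CPM. Most of that sum was Notch3, at 27.1 to 45.6 CPM in libraries 1 and 2, against 7.18 to 8.82 CPM. Pdgfrb was at 3.13 to 5.51 CPM, against 0.153 to 0.225 CPM. Lum, at 0.115 CPM or less in every library, was also higher in libraries 1 and 2 without overlap. Acta2, Rgs5, Col1a1 and Dcn overlapped, and Col1a2 was lower in libraries 1 and 2. The sums of neuron, oligodendrocyte, microglia and endothelial markers overlapped between libraries 1 and 2 and the others. The 7 progenitor markers summed to 8373 to 9440 CPM in libraries 1 and 2, against 11079 to 11765 CPM. Between LG and HG the astrocyte sums overlapped, at 544 to 1724 CPM in LG and 579 to 1580 CPM in HG. The part of these cells in the levels of Pdk4, Pdk1 and Pdp1 was not tested.

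Of 13 tested members of the list of other PPAR and FOXO targets, 6 were above the others in libraries 1 and 2 without overlap, 1 was below and 6 overlapped, where 11.2% of all tested genes were above and 11.9% below. Cpt1a, the carnitine palmitoyltransferase that lets fatty acids into mitochondria, was at 45.4 to 47.5 CPM in libraries 1 and 2, against 7.25 to 11.4 CPM in libraries 3 and 4. Angptl4, a secreted inhibitor of lipoprotein lipase, was at 0.265 to 0.758 CPM, against 0.0328 to 0.103 CPM. Klf15, Acadm and Acadl were also above, and Fabp3 was the member below.

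Among factors reported to act on Pdk genes, 4 of 14 were above in libraries 1 and 2 without overlap and 5 were below, where 11.2% of all tested genes were above and 11.9% below. Ppargc1a, a coactivator of mitochondrial genes, was at 16.9 to 21.8 CPM in libraries 1 and 2, against 5.33 to 7.04 CPM in libraries 3 and 4. Epas1, which encodes HIF-2α, was at 13.2 to 20.8 CPM, against 5.03 to 6.91 CPM. Ppara, which encodes PPARα, was at 1.79 to 2.26 CPM, against 0.969 to 1.52 CPM, and Nr3c1, the glucocorticoid receptor gene, was the other one above. Hif1a, which encodes HIF-1α, was below, at 143.8 to 156.6 CPM in libraries 1 and 2, against 162.5 to 178.7 CPM in libraries 3 and 4. Ppard, which encodes PPARδ, was at 37.9 to 52.8 CPM, against 55.9 to 62.7 CPM, and Myc, Stat5a and Stat5b were also below. Of 11 tested targets of hypoxia-inducible factor other than Pdk1, 3 were above without overlap (Vegfa, Egln3 and Pfkfb3) and 0 below. The complex subunits had 1 of 6 above, Pdhx, and 1 below, Pdhb.

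The target of the kinases and the rest of the complex differed little between LG and HG. Pdha1, whose product the kinases phosphorylate, averaged 145 ± 6.29 CPM in LG and 146 ± 5.09 CPM in HG (SD, n = 4), with a log2 fold change of -0.01 (SE 0.063, edgeR adjusted p = 0.9999). Pdhb, the beta subunit, was at 116 ± 7.34 CPM in LG and 111 ± 9.82 CPM in HG. Dld, the dihydrolipoamide dehydrogenase shared with other complexes, averaged 95.8 ± 4.77 CPM in LG and 106 ± 8.55 CPM in HG. It had a log2 fold change of -0.15 (SE 0.076, edgeR adjusted p = 0.9999) and was lower in LG in 4 of 4 pairs (edgeR adjusted p = 0.361 with the block).

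Dlat, the acetyltransferase core, averaged 55.6 ± 1.88 CPM in LG and 57.2 ± 2.25 CPM in HG. Pdhx, which tethers Dld to that core, averaged 45.5 ± 1.67 CPM in LG and 46.4 ± 2.81 CPM in HG, and Pdpr, the regulatory partner of the phosphatase, 56.3 ± 2.00 CPM in LG and 56.8 ± 4.26 CPM in HG (SD, n = 4). Pdha2, the testis form of the alpha subunit, had no count. By edgeR 0 of 6 tested subunits passed in any of the 3 fits (no block, pair block, pair block with offsets). Without the block 0 had an unadjusted p under 0.05. Their median log2 fold change was -0.02. With the pair block Dld had an unadjusted edgeR p of 0.0463, where 2542 of 18905 genes were under 0.05.

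Genes that supply pyruvate or use it otherwise were mostly at small positive fold changes, and none passed. Of 12 tested members 11 had positive log2 fold changes, with a median of 0.10, against 9716 of 18905 genes and a median of 0.01 over all genes. By edgeR 0 members passed in any of the 3 fits. Without the block 2 members had an unadjusted p under 0.05, beside 745 of 18905 genes. Me3, mitochondrial malic enzyme, had a log2 fold change of 0.31 (SE 0.14) and averaged 6.17 ± 0.475 CPM in LG and 4.98 ± 0.654 CPM in HG (SD, n = 4). Pck2, mitochondrial phosphoenolpyruvate carboxykinase, was at 0.21 (SE 0.12) and pyruvate carboxylase, Pcx, at 0.20 (SE 0.087). The pyruvate carrier genes Mpc1 and Mpc2 were at 0.19 and 0.09, and Ldha, which makes lactate from pyruvate, at 0.05.

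The lists of factors and of their other targets had no called member either. Over all genes 9716 of 18905 were positive. Of the 14 tested factors reported to act on Pdk genes, 10 were positive, with a median log2 fold change of 0.04. Epas1 was at -0.28 (SE 0.56) and Stat5a and Ppargc1a at 0.21 and -0.21, while Hif1a was at 0.01. Of the 11 tested targets of hypoxia-inducible factor, 10 were positive, with a median of 0.09. Ankrd37 was at 0.51 (SE 0.24) with a mean of 0.817 CPM in LG and 0.574 CPM in HG, and Egln3 at 0.24 (SE 0.35).

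Of the 13 tested PPAR and FOXO targets, 11 were positive, with a median of 0.07, beside 9716 of 18905 genes positive over all genes. Klf15, a transcription factor of fasting metabolism, was at 0.34 (SE 0.33) and was higher in LG in 4 of 4 pairs, as were 10.8% of all tested genes. Irs2, the insulin receptor substrate gene that FOXO factors induce, was at 0.33 (SE 0.18), also with 4 of 4 pairs higher. With the block these had edgeR adjusted p of 0.0940 and 0.0764, and neither passed. In these 3 lists edgeR called 0 members in the 3 fits, and 0 members had an unadjusted p under 0.05 without the block.

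**Figure D4:**
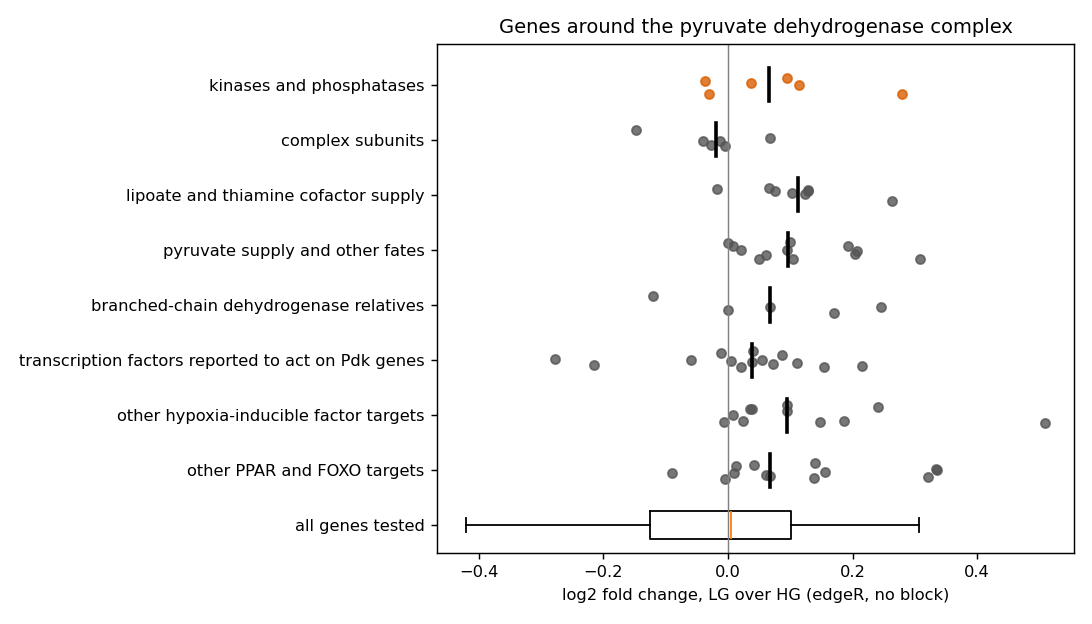
Log2 fold change of LG over HG (edgeR, no block) on the horizontal axis for the 6 kinase and phosphatase genes and for 7 lists of genes around the complex. Points are genes, black bars are medians, and the box for all genes gives the quartiles with whiskers at the percentiles 5 and 95. Of the 7 lists, that of the complex subunits has the median closest to 0, at -0.02, against 0.01 for all genes. Pdk2 lies farthest to the right of the 6 genes, at 0.28.

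The genes whose log2 CPM most resembled each member over the 8 libraries were taken from 14263 genes with a mean of at least 1 CPM. For Pdk2 they were Vhl, the ubiquitin ligase subunit that marks hypoxia-inducible factors for destruction (Pearson r = 0.976), and Wdr34 (0.962). For Pdk3 they were Mapk8ip1 (0.968) and Ptdss2 (0.963). For Pdk1 they were Fzd7 (0.994) and Ccdc88c (0.990), and for Pdk4 AU020206 (0.995) and Appl2 (0.992). For Pdp1 they were Smad2 (0.985) and Metrnl (0.973), and for Pdp2 Dennd6b (0.961) and Map3k12 (0.956). The libraries share preparations and were searched over many genes, so these values describe likeness only.

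On GRCm38, Pdk1 (ENSMUSG00000006494) lies at chr2:71873224-71903858 on the plus strand and Pdk2 (ENSMUSG00000038967) at chr11:95026258-95041354 on the minus strand. Pdk3 (ENSMUSG00000035232) lies at chrX:93764607-93832201 and Pdk4 (ENSMUSG00000019577) at chr6:5483351-5496309, both on the minus strand. Pdp1 (ENSMUSG00000049225) lies at chr4:11958184-11966452 on the minus strand and Pdp2 (ENSMUSG00000048371) at chr8:104591451-104599026 on the plus strand. The exons of the 6 genes share no base with those of another annotated gene. The antisense gene Gm11513 lies across Pdk2 with 0 shared exonic bases.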

How the data were processed

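Per the labels' protocols, an mRNA kit turned 100 ng of RNA per sample into libraries that were read as 150 bp pairs. The authors deposited raw counts per gene, as whole numbers. Per the submitters' processing notes, which give no roles, the tools were CASAVA 1.8.2, STAR, featureCounts and DESeq2, and the build was mm10. Their annotation, strand setting and handling of multiply matching reads were not given in the sources used here.

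The comparison of LG with HG used edgeR 4.0.16 in R 4.3.3 (filterByExpr, which kept 18905 genes, TMM factors and the robust quasi-likelihood test), with Benjamini-Hochberg adjustment over all genes and a threshold of 0.05. DESeq2 1.42.0 and limma 3.58.1 (voom) were alternatives. Each SE was derived from the fold change and its F statistic. CPM uses TMM factors, and log2 CPM a prior count of 2. Exonic length, GC content and symbols (52125 of 56980 IDs) came from GENCODE M21 on GRCm38. Offsets for GC content and length were smooth fits per library (mgcv 1.9.3). The fit was also run on simulated data, whose settings and result are not given here, so nothing is concluded from that run.

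Same-numbered LG and HG libraries deviated together from their group means, at r from 0.448 to 0.625 across genes, against at most 0.419 between different numbers, and every pair was above 0.1, so the numbers were taken to pair the libraries. The labels call the preparations independent, while numbers 1 and 2 share a code, so p-values measure the spread between libraries. Promoters came from RefSeq on GRCm38.p6 and matched 5 of the 6 members. Named beside the members were all subunits of the complex, in each other list the 2 genes with the largest absolute log2 fold change and some chosen after their values were seen, and for each member the 2 genes of highest r. Some genes of the lists are not reported here. The members and the lists were chosen with earlier results of these data known.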

Additional observations from a re-analysis of the deposited data

Results flagged for a closer look

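In 44 groups of 4 libraries (the 6 genes, the 6 tested subunits of the complex and the sums, ratios and shares), 2 had a library set apart from the rest, where chance alone flags about 1 in 20 groups, or 2.2 of these. Pdk2 was far below the other HG libraries in HG replicate 1, at 4.75 log2 CPM. The share of Pdk3 in the summed kinase level was far below the other HG libraries in HG replicate 2, at 44.8%.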

How the results depend on the processing

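Of the 6 members, 0 passed in each of the 22 fits, in which the lowest edgeR adjusted p was 0.0571, for Pdk2 with the replicate block and without replicate 4. The number of genes called among all genes was 0 in the fit without a block, 79 with the replicate block, 277 with GC and length offsets and the replicate block, 1 with the preparation block, 17 with blocked sums per preparation, and 4 with DESeq2. Leaving out 1 library or pair gave 0 to 148 genes, and with the replicate block these were 6 without replicate 1, 0 without replicate 2, 39 without replicate 3 and 148 without replicate 4. The pairing changed no call of a member. Without 1 library or pair, log2 fold changes ran from -0.10 to 0.31 for Pdk1 and -0.76 to 0.38 for Pdk4. They ran from -0.13 to 0.10 for Pdp1 and -0.02 to 0.10 for Pdp2. In the fits without a block, the sign of each of these genes changed with the library left out. With the replicate block and without 1 pair, Pdk1 stayed positive, from 0.04 to 0.19, and Pdk4 negative, from -0.50 to -0.03. With the offsets and no block Pdk4 was at 0.0171 and Pdp1 at 0.0849, and Pdp1 was at 0.0830 with the offsets and the replicate block. Pdp1 was at 0.0211 and Pdp2 at -0.0206 with the block and without replicate 2, and Pdp2 was at -0.00106 without LG replicate 4. The cause was not tested. Across genes, which are not independent, fold changes with the block followed GC content at a rank correlation of 0.356, and of -0.02 with the offsets.

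With the longest transcript in place of the union of exons, the summed kinase level was 33.1 CPM per kb in LG and 29.1 in HG, the ratio of kinases to phosphatases 5.24 in LG and 4.64 in HG, and that of Pdk2 to Pdk3 1.25 in LG and 1.10 in HG. The longest transcript of Pdk2 is 2246 bp against 3163 bp of exons, and that of Pdk3 2115 bp against 2561 bp. The lowest count of Pdk4 in a library was 8.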

Other observations

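Genes that supply the lipoate and thiamine cofactors of the complex were positive in 7 of 8 tested members in LG against HG, with a median log2 fold change of 0.11, and edgeR called 0 of them without the block, with it, or with the block and the offsets. Over all genes 9716 of 18905 were positive, and 10.8% were higher in LG in every pair. Lipt1, a lipoyl transferase, was at 0.26 (SE 0.17) with 4 of 4 pairs higher in LG. The sister complex for branched-chain keto acids has a kinase and a phosphatase of its own: Bckdk, the kinase, had a log2 fold change of 0.07 (SE 0.090), and Ppm1k, the phosphatase, averaged 25.8 CPM in LG and 25.8 CPM in HG. The subunit genes Bckdha and Bckdhb were at 0.25 and 0.17 and Dbt at -0.12, and 0 of the 5 genes of this list passed in these fits.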
